A study of Mus musculus with 3 samples.

Results

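Chondrocytes, the cells of cartilage, are set up by the transcription factor Sox9 together with its relatives Sox5 and Sox6, and they secrete a matrix rich in proteoglycan. The genes described here are those 3 regulators (Sox9, Sox5 and Sox6) and 6 cartilage matrix genes other than collagens (Acan, Hapln1, Comp, Matn1, Matn3 and Chad), 9 of the 39179 genes measured. They were taken by symbol, with their levels in these libraries already known, so the levels are given as a description. All 9 were found, and each had a value of 20 or more in at least 1 library.

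The cells came from a mouse embryonic stem cell line carrying Contactin2:eGFP, a reporter of the adhesion gene Cntn2 used to mark cardiac Purkinje cells. The same line carried lentiviral aMHC:mCherry, in which the promoter of Myh6, a myosin heavy chain gene of heart muscle, drives the reporter. All cells received sodium nitroprusside, a nitric oxide donor, at day 4 of differentiation and were sorted at day 25 into 3 populations. These were eGFP-positive cells with dim mCherry (GFP), mCherry-positive cells (MHC) and cells negative for both reporters (NEG). Each population is 1 library from 1 line and every population was treated, so the differences are not checked by replicates, no p-value is given and no effect of nitroprusside can be read. The labels do not say whether the sorted cells came from a single differentiation.

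In cartilage, Sox9 switches on the matrix genes, and Sox5 and Sox6, which lack an activation domain of their own, help it to act on them. Aggrecan, the product of Acan, is a large proteoglycan that holds water in the tissue, and the link protein encoded by Hapln1 fixes it to hyaluronan. Cartilage oligomeric matrix protein (Comp), the matrilins (Matn1 and Matn3) and chondroadherin (Chad) connect collagen fibrils with each other, with proteoglycan and with cells. In the heart, Sox9 and several of these matrix genes are known from the valves, whose mesenchyme shares part of the cartilage programme. Sox5 and Sox6 are also used outside cartilage, in neural and muscle cells among others.

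Values are deposited read counts scaled by size factors. Recovered reads numbered 52109065 in GFP cells, 52826956 in MHC cells and 47289405 in NEG cells, and the 9 genes held 0.0175% of them in GFP, 0.271% in MHC and 0.584% in NEG. As a check of the labels, Cntn2 had a value of 10045 in GFP cells, 228 in MHC cells and 204 in NEG cells, and Myh6 4694, 186924 and 3843 in the same order. Myh6 in GFP was near its NEG value, so the check does not bear out the dim mCherry of the GFP label. A gene is called higher or lower at 2-fold or more on the log2(value + 1) scale and a value of at least 20 where it is higher, which is a rule of size. Folds are ratios of deposited values, and their 95% intervals (Clopper-Pearson) cover counting error only. In sorted bulk populations, fewer cells of a type and less RNA per cell cannot be told apart.

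The cartilage genes were lowest in GFP and highest in NEG, with Sox6 as the exception. Between GFP and MHC, 5 of 9 members were lower in GFP (Sox9, Acan, Hapln1, Comp and Chad), 0 were higher and 4 lay within 2-fold. Over all genes tested in that comparison, 16.4% were lower and 15.6% higher in GFP. Between GFP and NEG, 8 of 9 were lower in GFP and 0 higher, beside 15% lower and 14.1% higher over all genes. Between MHC and NEG, 5 of 9 were lower in MHC (Acan, Hapln1, Matn1, Matn3 and Chad) and 0 higher, beside 5.21% lower and 5.35% higher over all genes. The median log2(value + 1) ratio of the members was −3.34 for GFP against MHC, −4.52 for GFP against NEG and −2.09 for MHC against NEG, where the medians of all genes tested were 0.01, 0.02 and −0.01. These comparisons share libraries, and the members were chosen on them.

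**Figure D1:**
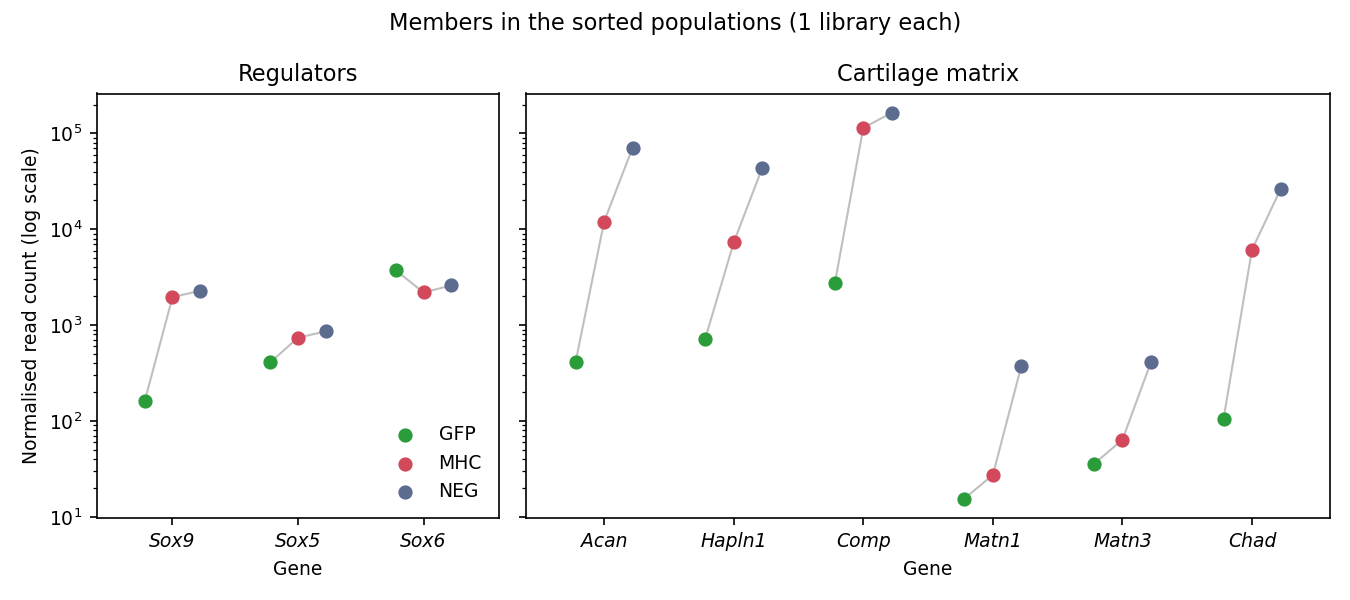
Normalised read count (log scale) of each gene in GFP, MHC and NEG, 1 library per point, with lines that only join the points of a gene. The plotted values of the 6 matrix genes climb from GFP over MHC to NEG. For Matn1 the step from GFP to MHC is within counting error. The GFP value of Chad cannot be told apart from reads of the surrounding gene Acsf2. Sox9 and Sox5 sit at close levels in MHC and NEG, and Sox6 is highest in GFP at 3723.

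Of the regulators, Sox9 separated GFP from the other populations and did not separate MHC from NEG. Sox9 (ENSMUSG00000000567, chr11:112782224-112787760, mm10, protein-coding), the factor without which cartilage does not form, had a value of 164 in GFP cells, 1968 in MHC cells and 2281 in NEG cells. It was 12.0-fold (95% interval 10.3 to 14.1) lower in GFP cells than in MHC and 13.9-fold (95% interval 12.0 to 16.3) lower in GFP cells than in NEG. In MHC it stood at 86.3% (95% interval 81.0 to 91.9) of NEG, outside counting error but within 2-fold.

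Sox5 and Sox6, whose proteins pair with each other, went in different directions in GFP, Sox5 lower by smaller folds than Sox9 and Sox6 higher. Sox5 (ENSMUSG00000041540, chr6:143828425-144781977) had a value of 410.4 in GFP cells, 741 in MHC cells and 861 in NEG cells. It was 1.81-fold (95% interval 1.60 to 2.04) lower in GFP cells than in MHC and 2.10-fold (95% interval 1.86 to 2.36) lower than in NEG. The call against NEG is at the edge of the rule, and it was lost when libraries were scaled to their total reads. Sox6 (ENSMUSG00000051910, chr7:115471344-116038744) had a value of 3723 in GFP cells, 2194 in MHC cells and 2597 in NEG cells. It was 1.70-fold (95% interval 1.61 to 1.79) higher in GFP cells than in MHC and 1.43-fold (95% interval 1.36 to 1.51) higher than in NEG, within 2-fold in both. All 3 regulators thus stood close to each other in MHC relative to NEG, at 86.3% for Sox9, 86.1% for Sox5 and 84.5% for Sox6, and spread apart in GFP. Sox5 and Sox6 span 954 kb and 567 kb, and reads were counted over introns too, so their values can hold unspliced RNA and short transcripts from inside the gene.

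Among 16 other Sox genes, few were expressed. Sox8, a close relative of Sox9, had a value of 12.8 in GFP cells, 144 in MHC cells and 183 in NEG cells, an order like that of Sox9 at a lower count. Sox12 went the other way, with 3047 in GFP cells, 529 in MHC cells and 826 in NEG cells. Sox4, uncertain because an overlapping gene holds many of its reads, had 5815 in GFP cells, 1777 in MHC cells and 4602 in NEG cells. Sox13, a relative of Sox5 and Sox6, was lower in GFP, with 23.8 in GFP cells, 52.7 in MHC cells and 157 in NEG cells. By the rule of size, 2 of 4 tested genes were higher and 2 lower in GFP than in MHC (median log2 ratio 0.30). Of 5 tested, 1 was higher and 3 lower in GFP than in NEG (median −1.79), and 0 were higher and 3 lower in MHC than in NEG (median −1.37).

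The aggrecan and link protein genes showed a stepwise pattern. Acan (ENSMUSG00000030607, chr7:79053483-79115099) had a value of 415 in GFP cells, 12063 in MHC cells and 71155 in NEG cells. It was 29.1-fold (95% interval 26.5 to 32.0) lower in GFP cells than in MHC, 171-fold (95% interval 156 to 188) lower in GFP cells than in NEG and 5.90-fold (95% interval 5.78 to 6.02) lower in MHC cells than in NEG. Hapln1 (ENSMUSG00000021613, chr13:89540636-89611832), whose protein locks aggrecan to hyaluronan, had a value of 721 in GFP cells, 7289 in MHC cells and 43656 in NEG cells. Its step between MHC and NEG was close to that of Acan, 5.99-fold (95% interval 5.84 to 6.14) lower in MHC. In MHC, Acan stood at 17.0% and Hapln1 at 16.7% of their NEG values. Their 95% counting intervals (16.6 to 17.3 and 16.3 to 17.1) overlap when all reads over Hapln1 are counted. Against GFP the genes differed more, since Hapln1 was 10.1-fold (95% interval 9.39 to 10.9) lower in GFP cells than in MHC.

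Part of the Hapln1 count in GFP was also counted for another annotated gene. The pseudogene Gm8546 (chr13:89577155-89578413), which lies on the opposite strand within Hapln1, had a value of 250 in GFP cells, 289 in MHC cells and 225 in NEG cells. That is 34.6% of the Hapln1 count in GFP, 3.96% in MHC and 0.515% in NEG. Without those reads Hapln1 was at 472 in GFP cells, 7000.2 in MHC cells and 43431 in NEG cells, 14.8-fold (95% interval 13.6 to 16.3) lower in GFP cells than in MHC and 92.1-fold (95% interval 84.4 to 101) lower than in NEG. With all reads the value of GFP against NEG was 60.5-fold (95% interval 56.4 to 65.0). In MHC, Hapln1 without the Gm8546 reads was 6.20-fold (95% interval 6.05 to 6.37) lower than in NEG. That interval no longer overlaps the one of Acan (5.78 to 6.02).

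Comp differed from the other matrix genes in MHC. Comp (ENSMUSG00000031849, chr8:70373548-70382065), the cartilage member of the thrombospondin family, had a value of 2724 in GFP cells, 114515 in MHC cells and 164349.9 in NEG cells. It was 42.0-fold (95% interval 40.5 to 43.6) lower in GFP cells than in MHC and 60.3-fold (95% interval 58.2 to 62.6) lower than in NEG. In MHC it stood at 69.7% (95% interval 69.1 to 70.2) of NEG, while the other 5 matrix genes stood at 7.25% to 23.5%. Comp is also made by tendon, ligament and other connective tissue.

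The matrilin genes were low outside NEG. Matn1 (ENSMUSG00000040533, chr4:130944385-130955475), the matrilin most confined to cartilage, had 17 reads in GFP cells, 27 in MHC cells and 334 in NEG cells, which are values of 15.5, 27.3 and 377. It was 24.3-fold (95% interval 14.9 to 42.2) lower in GFP and 13.8-fold (95% interval 9.31 to 21.3) lower in MHC cells than in NEG. GFP and MHC were not separable at this depth, with GFP 1.76-fold lower and a 95% interval of 0.925 to 3.44. Matn3 (ENSMUSG00000020583, chr12:8947929-8972028) had a value of 35.6 in GFP cells, 63.8 in MHC cells and 411 in NEG cells. It was 11.5-fold (95% interval 8.28 to 16.5) lower in GFP and 6.44-fold (95% interval 4.92 to 8.56) lower in MHC cells than in NEG, and 1.79-fold (95% interval 1.18 to 2.74) lower in GFP cells than in MHC.

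Chad (ENSMUSG00000039084, chr11:94565047-94569127) encodes a leucine-rich protein through which chondrocytes attach to their matrix. It had a value of 105 in GFP cells, 6130.1 in MHC cells and 26123 in NEG cells. It was 4.26-fold (95% interval 4.14 to 4.38) lower in MHC cells than in NEG. The 4.08 kb of Chad lie inside Acsf2 (chr11:94557102-94601871), a gene of fatty acid metabolism on the opposite strand, so Chad is uncertain. In GFP the density of reads was 25.8 per kb within Chad and 25.6 per kb over the rest of Acsf2, so the GFP value cannot be told apart from the reads of Acsf2. The ratios of all reads over the Chad span, 58.3-fold lower in GFP cells than in MHC and 249-fold lower than in NEG, are therefore no estimates for Chad alone. In MHC it was 1502 per kb within Chad and 34.2 outside, and in NEG 6401 and 37.9. Chad in GFP thus stood at the density of the surrounding gene, and in MHC and NEG far above it.

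**Figure D2:**
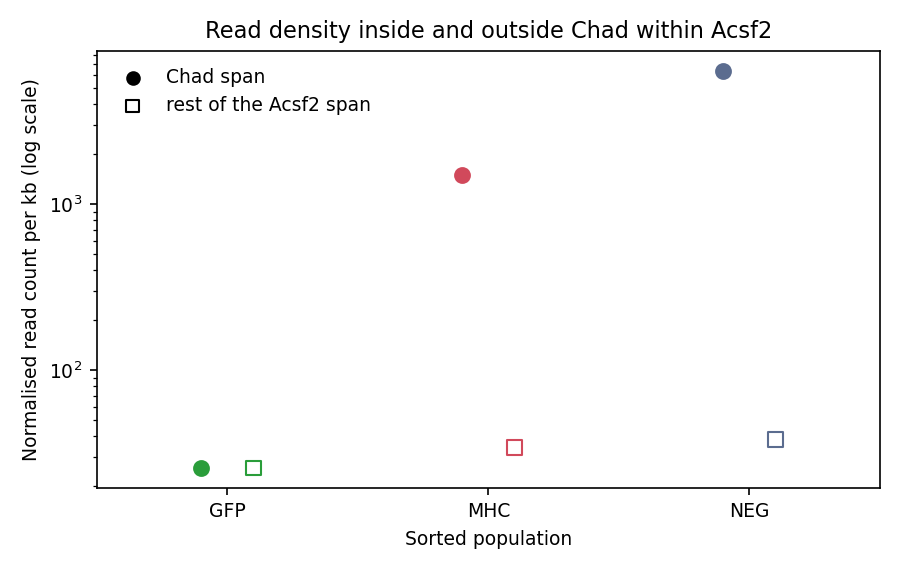
Normalised read count per kb (log scale) inside the Chad span (filled circles) and over the rest of the surrounding Acsf2 span (open squares) in GFP, MHC and NEG, 1 library each. Both densities are near 26 per kb in GFP, and Chad stands far above its surroundings in MHC (1502) and NEG (6401).

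**Figure D3:**
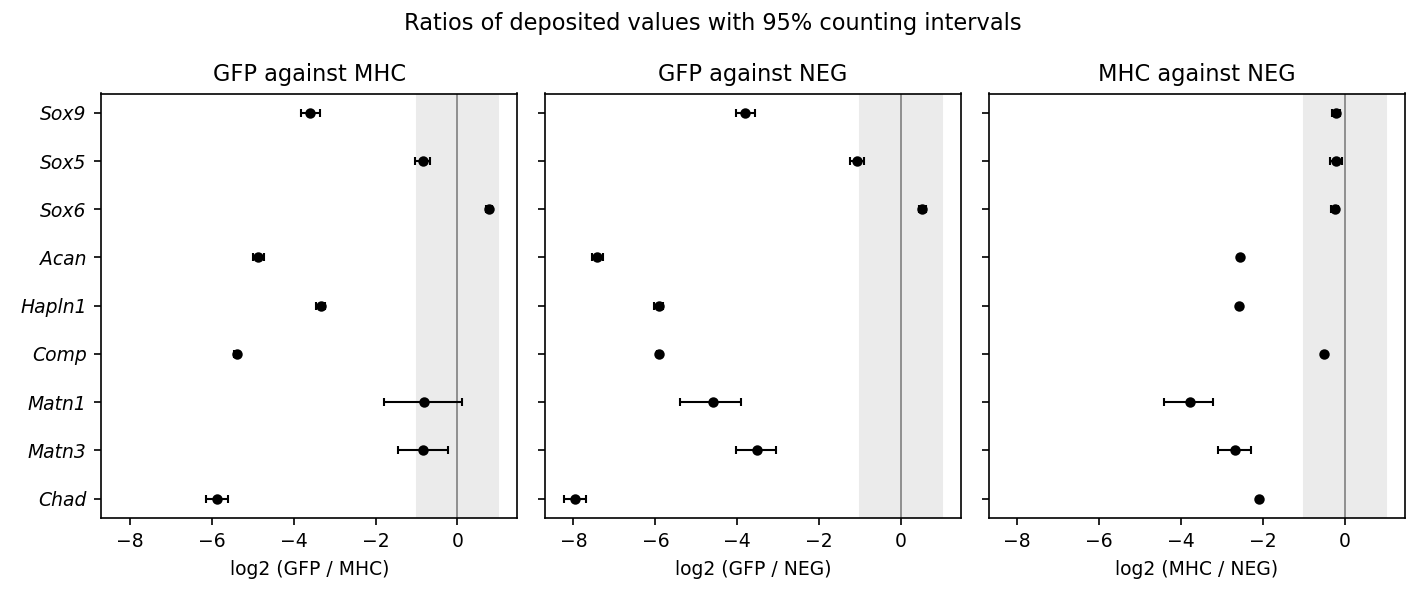
Log2 ratio of the deposited values of each gene in the 3 pairs of populations, with 95% counting intervals as bars and the range within 2-fold in grey, Chad being plotted by all reads over its span. Sox6 lies right of 0 in both comparisons of GFP, and in MHC against NEG the regulators and Comp lie in the grey range while the other 5 matrix genes lie left of it.

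Levels of different genes were compared per kb of merged exons. In NEG, Comp was highest with a value of 55393 per kb, followed by Chad (15549), Acan (9527) and Hapln1 (7397), and Sox9 came next with 552. In MHC the first 4 kept this order, from 38596 per kb for Comp to 1235 for Hapln1. In GFP, Comp was still highest at 918 per kb and Sox6 stood at rank 2 with 251, where it held rank 6 in MHC (148) and rank 7 in NEG (175). Acan had 55.6 per kb in GFP, 1615 in MHC and 9527 in NEG. The counts can include reads from introns, which a length in exons does not account for, and among these genes the introns are long in Sox5, Sox6, Hapln1 and Acan.

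Promoter windows are shown for the matrix genes that were lower in MHC than in NEG. The RefSeq table (GRCm38.p6) has windows for 7 of the 9 genes, and the 250 bases before the transcript start are printed for Acan (chr7:79052976-79053225), Hapln1 (chr13:89540386-89540635), Matn1 (chr4:130944135-130944384), Matn3 (chr12:8947679-8947928) and Chad (chr11:94564797-94565046). All 5 are on the plus strand and read 5′ to 3′, ending at the base before the start. Capitals mark matches to TATAAA, a core promoter motif, and to GGGCGG, the GC box, on either strand, and neighbouring GC boxes may overlap.
Acan: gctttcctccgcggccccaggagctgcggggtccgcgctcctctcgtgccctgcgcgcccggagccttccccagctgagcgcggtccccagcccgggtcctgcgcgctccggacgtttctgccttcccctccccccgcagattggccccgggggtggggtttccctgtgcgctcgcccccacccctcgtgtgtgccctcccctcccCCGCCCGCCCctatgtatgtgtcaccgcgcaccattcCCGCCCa
Hapln1: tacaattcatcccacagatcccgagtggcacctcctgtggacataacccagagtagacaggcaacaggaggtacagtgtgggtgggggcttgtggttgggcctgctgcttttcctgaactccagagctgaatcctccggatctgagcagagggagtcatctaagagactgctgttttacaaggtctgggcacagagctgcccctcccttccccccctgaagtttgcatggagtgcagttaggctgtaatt
Matn1: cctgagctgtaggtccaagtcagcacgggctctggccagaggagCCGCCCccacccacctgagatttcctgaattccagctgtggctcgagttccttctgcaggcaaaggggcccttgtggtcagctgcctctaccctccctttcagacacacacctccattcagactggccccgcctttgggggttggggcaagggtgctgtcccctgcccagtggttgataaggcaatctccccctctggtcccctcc
Matn3: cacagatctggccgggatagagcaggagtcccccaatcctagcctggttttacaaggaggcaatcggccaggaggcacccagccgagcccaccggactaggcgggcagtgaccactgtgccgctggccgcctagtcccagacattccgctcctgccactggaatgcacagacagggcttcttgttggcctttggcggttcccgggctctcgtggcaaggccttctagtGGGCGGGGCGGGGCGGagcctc
Chad: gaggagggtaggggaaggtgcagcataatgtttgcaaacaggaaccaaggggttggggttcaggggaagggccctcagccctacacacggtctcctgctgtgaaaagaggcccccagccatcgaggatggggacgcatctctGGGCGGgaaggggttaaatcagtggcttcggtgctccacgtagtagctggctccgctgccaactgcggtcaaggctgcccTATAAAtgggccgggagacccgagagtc
The Chad window holds TATAAA with its first base 28 bases before the start, and the other 4 printed windows hold no match to it. GGGCGG has 3 matches in Acan, 3 in Matn3, 1 in Matn1, 1 in Chad and 0 in Hapln1. The Acan window is 74.4% G and C and that of Hapln1 54.4%, where the median of all windows is 52.4%. The letters ACAATG together with AACAAT and with ACAAAG, which hold the core of Sox binding motifs and of which ACAATG and AACAAT can overlap, were also searched on both strands and gave 0 matches in the 5 windows. Of all 32851 windows of this length, 12.4% hold TATAAA, 32.7% GGGCGG, 10.7% ACAATG, 9.42% AACAAT and 16.5% ACAAAG. The motifs were chosen with the sequences at hand, and a match or its lack describes these letters only.

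The link protein genes lie next to genes of aggrecan relatives, the large proteoglycans that bind hyaluronan. Hapln1 lies 43.5 kb from Vcan, and Acan 1.93 kb from Hapln3, with 0 protein-coding genes between them in either pair. Vcan, the versican gene of embryonic and vascular matrix, had a value of 455 in GFP cells, 1270.2 in MHC cells and 2044 in NEG cells, at 62.2% of NEG in MHC where its neighbour Hapln1 stood at 16.7%. Hapln3 was low, with 5.48 in GFP cells, 34.4 in MHC cells and 64.4 in NEG cells, at 53.5% of NEG in MHC where Acan stood at 17.0%. The brain forms Bcan and Ncan, with Hapln2 and Hapln4 beside them, reached at most 61.0 in any library.

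Most other relatives of the matrix genes lay within 2-fold between MHC and NEG. Matn4, the matrilin with the highest count, had a value of 1291 in GFP cells, 17497 in MHC cells and 19155 in NEG cells, and Matn2 had 501 in GFP cells, 4018 in MHC cells and 3783 in NEG cells. Thbs1, a thrombospondin like Comp but found in many tissues, was highest in GFP, with 298059 in GFP cells, 111102 in MHC cells and 84294 in NEG cells. Of 10 tested relatives, 7 were lower and 1 higher in GFP than in MHC (median log2 ratio −1.69). Of 11 tested, 8 were lower and 2 higher in GFP than in NEG (median −1.66), and 1 (Bcan) was lower and 1 (Ncan) higher in MHC than in NEG (median −0.05).

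The collagen genes of cartilage were lower in GFP than in MHC and than in NEG for all 8 (median log2 ratios −4.38 and −6.41), and lower in MHC than in NEG for 7 of 8 (median −1.68). Col2a1, the main collagen of cartilage and a direct Sox9 target, had a value of 6314 in GFP cells, 94203 in MHC cells and 574523 in NEG cells. At 16.4% of NEG in MHC it stood beside Acan and Hapln1. Col10a1, made by hypertrophic chondrocytes, was at 12.2% of NEG in MHC, with 1224 in GFP cells, 15087 in MHC cells and 123637 in NEG cells, and is uncertain because it lies within another gene. The remaining collagens of the list stood higher in MHC, from 28.4% (Col9a3) to 50.2% (Col11a1) of NEG.

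Other cartilage matrix and secreted genes were mostly lower in GFP and divided between MHC and NEG. Lect1, the gene of chondromodulin, had a value of 21.0 in GFP cells, 443 in MHC cells and 2942 in NEG cells, and was 6.65-fold lower in MHC than in NEG. 3110079O15Rik, the gene of the chondrocyte membrane proteoglycan Snorc, was 391-fold (95% interval 233 to 716) lower in GFP cells than in NEG, with 12.8 in GFP cells, 1317 in MHC cells and 5008 in NEG cells. Ucma, a secreted product of cartilage cells, had 3.66 in GFP cells, 71.9 in MHC cells and 439 in NEG cells. In MHC, Cilp stood at 153%, Otor at 115%, Cilp2 at 114% and Mgp, the gene of matrix Gla protein, at 111% of NEG. Fmod, the gene of the collagen-binding fibromodulin, had the reverse order, with 138402 in GFP cells, 118502 in MHC cells and 82860 in NEG cells, within 2-fold in all pairs. Ctgf, the gene of connective tissue growth factor, was highest in GFP and also within 2-fold, with 22175 in GFP cells, 11575 in MHC cells and 18002 in NEG cells, and is uncertain because of an overlapping gene. In GFP against MHC and in GFP against NEG alike, 12 of 15 tested genes of this list were lower and 1 higher (median log2 ratios −3.97 and −4.64). In MHC against NEG, 7 were lower, 0 higher and 8 within 2-fold (median −0.89). The member higher in GFP was Prg4, the lubricin gene of joint surfaces and mesothelium, with 19643 in GFP cells, 5276 in MHC cells and 8155 in NEG cells, and it shares reads with an overlapping gene.

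Most other regulators of chondrocytes, early and late, were lower in GFP. Ihh, the signal sent by prehypertrophic chondrocytes, had a value of 25.6 in GFP cells, 994 in MHC cells and 3217 in NEG cells. Pth1r, the receptor through which parathyroid hormone-related protein slows chondrocyte maturation, had 328 in GFP cells, 22038 in MHC cells and 45439 in NEG cells. Runx3, a factor of chondrocyte maturation, had 19.2 in GFP cells, 726 in MHC cells and 1476 in NEG cells. Bmpr1b, a receptor for bone morphogenetic proteins in early cartilage, was instead higher in GFP, with 76.8 in GFP cells, 9.12 in MHC cells and 13.6 in NEG cells. Zfp219, a partner of Sox9, was also higher in GFP, with 2480 in GFP cells, 1204 in MHC cells and 1212 in NEG cells, and shares reads with an overlapping gene. Wwp2, the host gene of a cartilage microRNA, had 10466 in GFP cells, 18861 in MHC cells and 27869 in NEG cells, and shares reads likewise. Trps1, a repressor active in growing cartilage, had 1838 in GFP cells, 2907 in MHC cells and 4943 in NEG cells. Of 13 tested genes, 9 were lower and 2 higher in GFP than in MHC (median log2 ratio −4.07). Of 14 tested, 12 were lower and 2 higher in GFP than in NEG (median −4.11), and of 13 tested 6 were lower and 0 higher in MHC than in NEG (median −0.92).

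Bone markers were also low in GFP. All 11 osteoblast markers were lower in GFP than in MHC (median log2 ratio −5.10) and than in NEG (median −5.94), and their summed value was 4717 in GFP cells, 424651 in MHC cells and 717849 in NEG cells. Most of each sum came from Ibsp, with 2413 in GFP cells, 293616 in MHC cells and 608631 in NEG cells. In MHC against NEG, 3 of the markers were lower, 2 higher and 6 within 2-fold (median −0.40). Sp7, the factor that commits cells to bone, stood at 56.7% of NEG in MHC and Bglap, the osteocalcin gene, at 90.4%. Spp1, the osteopontin gene, was higher in MHC, with 71092 in MHC and 9425 in NEG. Runx2, which serves both hypertrophic chondrocytes and osteoblasts, had a value of 288 in GFP cells, 4864 in MHC cells and 6415 in NEG cells, at 75.8% of NEG in MHC. No osteoblast marker was at 0 reads in any library, and the part of these cells in the cartilage results was not tested.

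**Figure D4:**
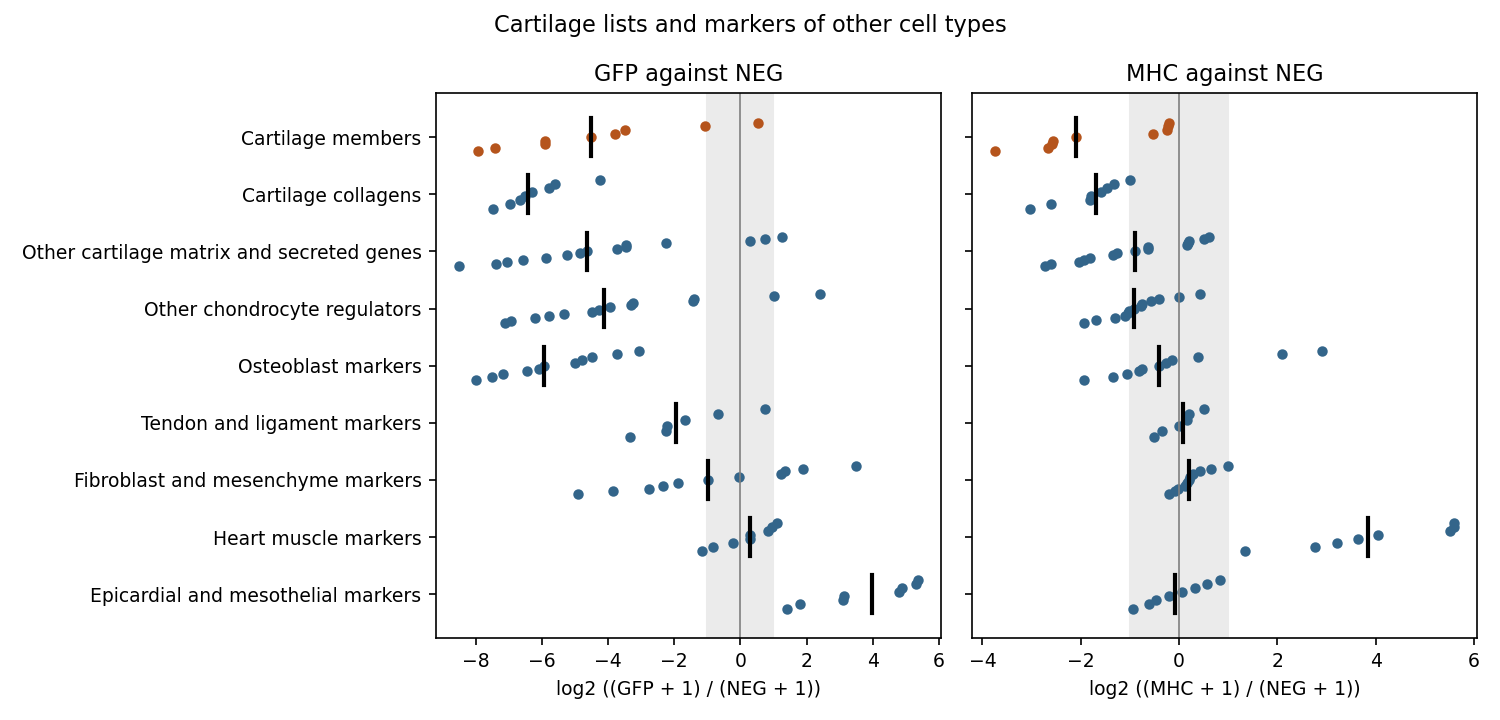
Log2((value + 1) ratio) of GFP against NEG and of MHC against NEG for the 9 genes (orange) and the genes of 8 other lists (blue) that reached a value of 20 in the higher library, with the median of each list as a black bar and the range within 2-fold in grey. In MHC against NEG the median is −2.09 for the 9 genes, −1.68 for cartilage collagens and −0.40 for osteoblast markers.

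Markers of other cell types were set beside these values. Heart muscle markers were higher in MHC than in NEG for all 8 (median log2 ratio 3.85), with a summed value of 13555 in GFP cells, 310028 in MHC cells and 10424 in NEG cells, and 8 were lower in GFP than in MHC (median −3.97). In GFP against NEG, 1 was higher and 1 lower (median 0.29). Myh6, whose promoter drives the mCherry used for sorting, is among these markers, so its high level in MHC follows from the sort. It had a value of 4694 in GFP cells, 186924 in MHC cells and 3843 in NEG cells, which is most of the MHC sum. Epicardial and mesothelial markers were higher in GFP for all 8, against MHC (median 3.52) and against NEG (median 3.98), with a summed value of 158561 in GFP cells, 5694 in MHC cells and 5566 in NEG cells, and 8 lay within 2-fold between MHC and NEG (median −0.07). Fibroblast and mesenchyme markers were within 2-fold between MHC and NEG for all 11 (median 0.21), with a summed value of 1353693 in GFP cells, 5255275 in MHC cells and 5274760.0 in NEG cells. In GFP, 4 of these were higher and 6 lower than in MHC (median −1.25), and 4 higher and 5 lower than in NEG (median −0.97). No gene of these 3 lists was at 0 reads, and their part in the cartilage results was not tested.

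Tendon and ligament markers also lay within 2-fold between MHC and NEG, for all 6 (median log2 ratio 0.08), and their summed value was 183956 in GFP cells, 200908 in MHC cells and 157242 in NEG cells. Most of each sum came from Fmod, which is also among the cartilage matrix genes above, with 138402 in GFP cells, 118502 in MHC cells and 82860 in NEG cells. In GFP 4 of 6 were lower than in MHC (median −1.71) and 4 of 6 lower than in NEG (median −1.94), with 0 higher. Tnmd, the tenomodulin gene of tendon, had a value of 25.6 in GFP cells, 308 in MHC cells and 265 in NEG cells. Their part in the Comp values was not tested.

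Markers of glia and neural crest, of endothelium and of neurons were low. Sox10, which defines neural crest glia, had 7 reads in GFP, 0 in MHC, where a count of 0 allows a value of up to 3.04, and 2 in NEG, and Foxd3 had 0 reads in GFP and in MHC and 1 in NEG. Summed values were 622 in GFP cells, 234 in MHC cells and 454 in NEG cells for 6 glia and neural crest genes, and 729 in GFP cells, 1666 in MHC cells and 2100.0 in NEG cells for 6 endothelial and endocardial genes. For 7 neuronal genes they were 207 in GFP cells, 287 in MHC cells and 595 in NEG cells. No endothelial or neuronal gene of these lists was at 0 reads. Of the glia and neural crest genes, 2 of 3 tested were higher in GFP than in MHC (median log2 ratio 1.60), 1 higher in GFP than in NEG (median −0.50) and 1 lower in MHC than in NEG (median −0.93). Of 4 endothelial genes tested, 1 was higher and 2 lower in GFP than in MHC (median −0.31), 3 lower in GFP than in NEG (median −1.14) and 1 lower in MHC than in NEG (median −0.27). Nfatc1, a factor of the valve-forming endocardium and of bone-resorbing cells, had 116 in GFP cells, 1336 in MHC cells and 1584 in NEG cells. That was most of the endothelial sum in MHC and in NEG, but not in GFP. Of 4 neuronal genes tested, 1 was higher and 1 lower in GFP than in MHC (median 0.07), 2 were lower in GFP than in NEG (median −1.12), and 1 was higher and 2 lower in MHC than in NEG (median −1.09).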

How the data were processed

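Reads were single, of 50 bases, from TruSeq libraries, per the labels' protocols. The submitters' processing notes name FastQC 0.11.2, STAR 2.3.0e, bedtools 2.17.0, DESeq2 1.2.10 and mm10, with no roles. The authors deposited a normalised signal, which is the gene's read count over the size factor of the library. A library's signal steps in multiples of 1 read (0.914 in GFP, 1.01 in MHC, 1.13 in NEG), and 100% came out whole within 0.01. Nested genes never exceeded their hosts among 1015 pairs of a gene of 300 or more reads inside an intron (GENCODE M21), 577 on opposite strands, so reads were treated as counted over the whole span on both strands.

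Ratios used a pseudocount of 1. With 1 library per population no count test could be fitted to the recovered reads, and no gene is called by one. A gene sharing 25% or more of its reads, summed over libraries, with an overlapping gene is called uncertain. The computation (Python 3.11.15, scipy 1.17.1) was tested on simulated reads. The members and the 16 lists (171 entries, of which Zbtb20, present in 2 rows, was left out) were chosen with earlier results of these data known. Every member was named, with genes of each other list among its 4 highest means or its 3 highest or lowest ratios in a pair, and defining markers. Vcan, Hapln2 and Hapln4 were added as neighbours of members after their values were seen.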

Additional observations from a re-analysis of the deposited data

How the results depend on the processing

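Each count of members was recomputed with a pseudocount of 0.5 or 10, with no minimum or a minimum of 100, at 3-fold, by total reads with and without the 10 genes with the most reads, by upper quartile and without Chad. With all 9 members, 5 were lower for GFP against MHC, 7 or 8 for GFP against NEG and 5 for MHC against NEG, and 0 were higher. The shares lower over all genes were 16.4%, 15% and 5.21% in these comparisons under the main rule. They were not recomputed at the other settings, so the counts there have no share to be read beside. Without Chad the counts were 4, 7 and 4 of the 8 left. Sox5 left the lower members of GFP against NEG when scaled by total reads, which shifts GFP up by 0.17 (log2) against both other libraries, and at 3-fold. Without both Chad and Hapln1, an alternative chosen after seeing the data, 3 members were lower in GFP than in MHC and 3 in MHC than in NEG, because fewer genes were counted. Of 138 recomputed log2 ratios of single members, 0 changed sign. A pseudocount cannot change a sign, and the scalings shifted ratios by at most 0.17. The member ratio closest to no difference was −0.21 (Sox9, MHC against NEG), so these settings could not have changed a sign. The largest move of a log2 ratio was 0.60, for Hapln1 without the reads of Gm8546 in GFP against NEG. No paired analysis was possible because each population has 1 library, and leaving out a replicate could not be tried. Depth limits Matn1 in GFP and MHC, with 17 and 27 reads.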

Other observations

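Genes for the sugar chains of proteoglycans were listed as chain-building enzymes, hyaluronan synthases, the transporters Slc26a2 and Slc35d1 and the hyaluronan receptor Cd44. In GFP, 7 of 20 tested genes of this list were lower and 1 higher than in MHC (median log2 ratio −0.30), and 10 of 21 lower and 2 higher than in NEG (median −0.74). In MHC, 6 of 21 were lower and 0 higher than in NEG (median −0.55). Xylt1, which starts the chains on the core protein, had a value of 76.8 in GFP cells, 380 in MHC cells and 993 in NEG cells. Papss2, which makes the sulfate donor used in cartilage, had 292 in GFP cells, 1809 in MHC cells and 2648 in NEG cells. Has2, the hyaluronan synthase gene of developing cartilage and heart cushions, had 47.5 in GFP cells, 274 in MHC cells and 600 in NEG cells and shares reads with an antisense gene. Csgalnact1, which starts chondroitin synthesis, was higher in GFP in both comparisons, with 7527 in GFP cells, 546 in MHC cells and 1472 in NEG cells. Has1, another hyaluronan synthase gene, passed the rule of size against NEG but not against MHC, with 43.0 in GFP cells, 29.4 in MHC cells and 20.3 in NEG cells. Cd44 had 1845 in GFP cells, 4868 in MHC cells and 4347 in NEG cells.

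Proteases that can cut aggrecan differed in their order. Adamts9 had a value of 23223 in GFP cells, 3789 in MHC cells and 3926 in NEG cells, and Adamts1 had 47976 in GFP cells, 29360 in MHC cells and 14143 in NEG cells. Adamts5, the main aggrecan-cutting enzyme of mouse cartilage, had 4196 in GFP cells, 5837 in MHC cells and 3620.5 in NEG cells, within 2-fold in all pairs. Adamts4, another aggrecan-cutting enzyme, was lower in GFP, with 169 in GFP cells, 368 in MHC cells and 380 in NEG cells. In MHC it stood at 96.9% of NEG, within counting error. Adamts15 was also lower in GFP, with 170.0 in GFP cells, 695 in MHC cells and 591 in NEG cells. Of 7 genes in the list, which also holds the inhibitor gene Timp3, 1 was higher and 2 lower in GFP than in MHC (median log2 ratio −0.09), 3 higher and 2 lower in GFP than in NEG (median 0.47), and 1 higher and 0 lower in MHC than in NEG (median 0.37).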
